A study of Mus musculus with 3 samples.

Results

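Expression of the endothelin system was measured in sorted endothelial cells from glomeruli, the filtering capillary tufts of the kidney, of adult mice. The system was taken as 8 genes listed by name, with no measured value in the rule: the peptide genes Edn1, Edn2 and Edn3, the receptor genes Ednra and Ednrb, and the peptidase genes Ece1, Ece2 and Mme. Of these, 7 genes had a probe set that names a single gene, out of 19938 such genes, and these had 8 of the 21789 probe sets of that kind. Ece2 had 2 of them, and Ednra was not analysed here. The cells came from adult mice of mixed background, primarily CD-1, that carry the transgene Tg(TIE2GFP)287Sato, in which green fluorescent protein is made under the Tie2 (Tek) promoter, active in endothelium. Sex is given as unknown. GFP positive cells were sorted from sieved and trypsinised glomeruli, with 1 kidney per array and no pooling. There were 3 arrays, replicates 1, 3 and 5, which form a single group that the study describes as independent biological samples, so no contrast between groups is possible. Tie2 is also known from some blood cells, which such a sort could include.

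Endothelins are short vasoactive peptides. They are made as long precursors, trimmed by furin-type convertases to an inactive big endothelin and cut to the active form by endothelin converting enzymes. Endothelin-1 from endothelium acts on the receptor Ednra of smooth muscle and mesangial cells, which contract, and on Ednrb of endothelium itself, which is known for release of nitric oxide and prostacyclin and for clearance of the peptide. Mme, or neprilysin, is a membrane peptidase that degrades endothelins among other peptides, and in the kidney it is known from podocytes and the brush border of the proximal tubule.

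Values are log2 signals per probe set, and a level is their mean ± SD over the 3 arrays (n = 3). Each was tested against 100, the number that the study used as a filter on raw values and which is 6.64 on the log2 scale, with limma's moderated test across all 21789 probe sets and Benjamini-Hochberg adjustment. A call needed an adjusted p under 0.05. A lower point of comparison is the 95th percentile of 1035 probe sets of olfactory receptor genes, which lies at 4.85 on the log2 scale. The probes of different genes bind with different strength, so levels are set against these limits and not against each other. In such a sort, fewer cells of a type and less RNA per cell cannot be told apart.

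Of the 8 probe sets, 2 exceeded the level of 100 by the test, 5 were below it and 1 was neither. Over all probe sets 15.8% were called above, 72.5% below and 11.6% neither. With limma's own variance prior, which also uses probe sets without any spread, the 8 calls were the same, and 16.8% of all probe sets were above and 74.1% below. The median level of the 8 was 5.30, against 5.04 over all probe sets tested. The receptor Ednrb and the converting enzyme Ece1 were the genes above, Edn1 was not decided, and Edn2, Edn3, Ece2 and Mme were below. At the lower olfactory receptor level, 4 probe sets were called above (Edn1, Ednrb, Ece1 and the first of Ece2), 2 below and 2 neither, where 44.4% of all probe sets were above and 36.2% below.

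**Figure D1:**
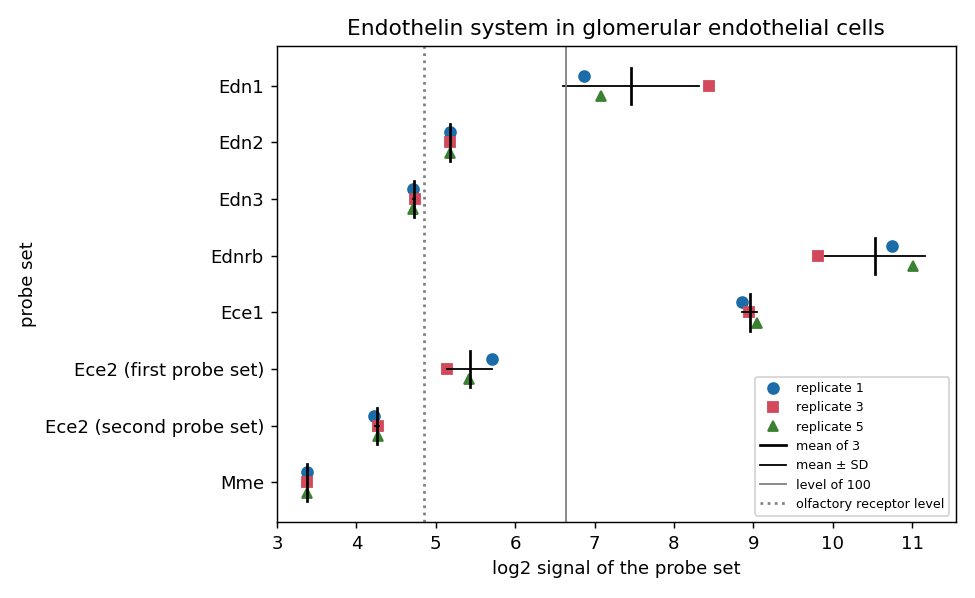
Log2 signal (horizontal axis) of the 8 probe sets of the endothelin system (rows) on replicates 1, 3 and 5 (points), with the mean (vertical bar) and SD (horizontal bar) over the 3 arrays. The points of Ednrb and Ece1 lie to the right of the level of 100 (solid line) on each array, Edn1 reaches from 6.87 to 8.45, and the others lie to the left of it.

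Edn1 encodes endothelin-1, the main endothelin of blood vessels. Its probe set (10404783) had 6.87, 8.45 and 7.08 on replicates 1, 3 and 5, which are signals of 117, 349 and 135. It exceeded 100 on 3 of 3 arrays, and replicate 3 stood apart from the other two. The level of 7.46 ± 0.86 was 0.82 above the limit on the log2 scale, with a 95% interval from -0.20 to 1.84, and was called neither (limma, adjusted p = 0.0988). Without replicate 3 the difference was 0.33 (limma, adjusted p = 0.0684). Against the olfactory receptor level it was called above, with a difference of 2.61 (limma, adjusted p = 0.00361).

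The promoter of Edn1 is shown because it is known from human and cultured cells to carry sites for GATA factors, hypoxia-inducible factors and AP-1, whose genes were measured in these cells too, and that of Ednrb because the values of Ednrb ran the other way across the arrays. Each run goes from 250 bases before to 50 after a transcription start of RefSeq (GRCm38.p6). Capitals mark, on either strand, the GATA motif GATAA, the AP-1 motif TGANTNA and the hypoxia response motif ACGTG. The Edn1 window is chr13:42301226-42301525 on the plus strand and the Ednrb window chr14:103843652-103843951 on the minus strand.
Edn1: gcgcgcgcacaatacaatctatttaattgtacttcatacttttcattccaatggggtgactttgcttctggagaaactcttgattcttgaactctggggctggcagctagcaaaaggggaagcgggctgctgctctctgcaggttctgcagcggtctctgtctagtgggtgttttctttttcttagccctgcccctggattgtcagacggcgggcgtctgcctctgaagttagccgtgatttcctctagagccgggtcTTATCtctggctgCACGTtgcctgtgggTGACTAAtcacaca
Ednrb: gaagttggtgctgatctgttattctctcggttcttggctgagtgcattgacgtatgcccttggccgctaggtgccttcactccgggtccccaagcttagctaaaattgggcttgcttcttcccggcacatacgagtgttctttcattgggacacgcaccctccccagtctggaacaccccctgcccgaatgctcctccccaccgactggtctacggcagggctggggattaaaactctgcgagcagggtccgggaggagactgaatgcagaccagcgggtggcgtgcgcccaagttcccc
The Edn1 window held 1 match to each of the 3 motifs, at positions 9 (GATA), 22 (hypoxia response) and 37 (AP-1) after the annotated start, with no overlap between them. The Ednrb window held none. Of 32851 RefSeq windows of the same kind, 25.4% held the GATA motif, 35.3% the AP-1 motif and 19.6% the hypoxia response motif, while 1.67% held all 3 and 39.6% none. The motifs were chosen because they are known from the Edn1 promoter, so these shares do not measure how unusual its matches are. Ednrb was chosen by its values, and a link between motifs and values was not tested. The windows of Edn2, Edn3 and Ednra also held none. Ece1 and Ece2 had a window with the hypoxia response motif, and Mme had windows with the AP-1 motif. A match describes the letters only and is not shown to be a site in these cells.

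Edn2 and Edn3 encode the other peptides, of which endothelin-3 is known for its role in neural crest cells and binds Ednrb. Edn2 (probe set 10507692) was at 5.18 on each array, 1.46 below the limit (difference -1.46, 95% interval -1.79 to -1.14, limma, adjusted p = 0.000402). As its arrays did not differ, the width of this interval comes from the variance of other probe sets. Edn3 (probe set 10479165) had 4.72, 4.74 and 4.72 on replicates 1, 3 and 5. Its difference from the limit was -1.92 (95% interval -2.25 to -1.59, limma, adjusted p = 0.000177). Neither was called on either side of the olfactory receptor level, with differences of 0.32 for Edn2 and -0.13 for Edn3 (limma, adjusted p = 0.0619 and 0.359).

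Ednrb, the endothelin receptor of endothelium, was measured far above the limit. Its probe set (10422164) had 10.75, 9.82 and 11.02 on replicates 1, 3 and 5, which are signals of 1723, 902 and 2073. All arrays were far above 100, and replicate 3 was the lowest of them. The level of 10.53 ± 0.63 was 14.8-fold the limit, a difference of 3.88 on the log2 scale (95% interval 3.10 to 4.67, limma, adjusted p = 0.000291). No probe set of an olfactory receptor gene had a mean as high.

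Ece1 encodes the enzyme that cuts big endothelin-1 to the active peptide. Its probe set (10509441) had 8.86, 8.94 and 9.05 on replicates 1, 3 and 5, which are signals of 465, 493 and 531. The arrays lay within 0.19 of each other on the log2 scale. The level of 8.95 ± 0.09 was 4.96-fold the limit, a difference of 2.31 (95% interval 1.97 to 2.65, limma, adjusted p = 0.000124).

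Ece2 encodes a related converting enzyme, known mainly from brain. Its first probe set (10434441) had 5.71, 5.14 and 5.42 on replicates 1, 3 and 5, a level of 5.43 ± 0.28 and a difference from the limit of -1.22 (95% interval -1.68 to -0.76, limma, adjusted p = 0.00239). Its second probe set (10434446) had 4.22, 4.27 and 4.27 on the same arrays, with a difference of -2.39 (95% interval -2.72 to -2.06, limma, adjusted p = 0.000103). Both were below 100, but they fell on different sides of the olfactory receptor level, the first above it by 0.57 (limma, adjusted p = 0.0329) and the second below it, with a difference of -0.60 (limma, adjusted p = 0.0103). The array annotation gives both to Ece2. Of the RefSeq transcripts it lists for the first, however, 1 belongs to the neighbouring gene Eef1akmt4 and 2 to a readthrough of Eef1akmt4 into Ece2, and none to Ece2 alone. Signal of the first probe set therefore cannot be assigned to Ece2.

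Mme was at 3.38 on each array (probe set 10492355), a signal of 10.4. The difference from the limit was -3.26 (95% interval -3.59 to -2.93, limma, adjusted p = 6.88e-05), and Mme was also called below the olfactory receptor level (difference -1.47, limma, adjusted p = 0.000699). As for Edn2, the width of the interval comes from the variance of other probe sets. The same 3 values were held by 239 other probe sets of the table, so that the level does not set Mme apart from them. For Edn2 there were 4 such probe sets, and for each other probe set of the system 0.

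The cell types that are known for endothelin genes in the kidney were checked by their markers in the same arrays. All 10 endothelial markers were called above 100, among them Tek at 10.65 ± 0.43 and Pecam1 at 10.26 ± 0.21. Over 6 lists of other cell types 3 of 55 markers were called above, 51 below and 1 neither. Of all genes, by the probe set of the highest mean, 14.9% were called above and 73.8% below. A call below is thus the usual one for a gene on these arrays. Those above were Podxl at 9.86 ± 0.08 and Clic5 at 9.10 ± 0.21 in the podocyte list and the water channel gene Aqp1 at 8.25 ± 0.52 in the proximal tubule list, genes that endothelium is also known to express. The podocyte list had 2 of 8 measured markers above and 6 below, with Nphs1 at 5.47, and its summed signal lay between 1591 and 1822. Most of that sum came from Podxl and Clic5. The proximal tubule list had 1 of 10 above and 9 below, with Slc34a1 at 5.37 and Lrp2 at 4.33 on each array. Mesangial and smooth muscle markers, from cells known for Ednra, were below in 10 of 10 cases, including Pdgfrb at 4.22 ± 0.25 and Itga8 at 5.26 ± 0.72, with a summed signal between 273 and 319. Collecting duct and distal nephron cells, which are known for Edn1 and Ednrb, had 9 of 10 markers below, including Aqp2 at 5.48 ± 0.15 and Aqp3 at 5.71, and 1 neither, with a summed signal between 350 and 359. Markers of neural crest, glia and melanocytes, which are known for Ednrb, were below in 8 of 8 cases, with Sox10 at 5.63 and Mitf at 4.90 on each array. Leukocyte markers were below in 9 of 9, with Ptprc at 4.77 ± 0.18 and Cd68 at 5.29 ± 0.03. A call below 100 does not show that a transcript was absent.

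Within the endothelin system the arrays differed most for Edn1 and Ednrb. Edn1 was highest on replicate 3, by 1.58 on the log2 scale over replicate 1 and by 1.37 over replicate 5, whereas Ednrb was lowest there (replicate 3 minus replicate 1 -0.93, replicate 3 minus replicate 5 -1.20). Between replicates 1 and 5, Edn1 differed by 0.21 and Ednrb by 0.27. The range over the arrays was 1.58 for Edn1, or 2.99-fold, and 1.20 for Ednrb, or 2.30-fold. Of the 4090 probe sets with at least 100 on each array, 2.59% had a wider range than Edn1 and 5.72% a wider one than Ednrb, and the median range was 0.21. Ece1 had a range of 0.19, with 51.9% wider, and the first Ece2 probe set one of 0.57. However, 25.5% of the 4090 repeated 1 value and so had a range of 0. Only 1818 had 3 distinct values, as Edn1 and Ednrb do, and shares among those alone are not given here. These are descriptions, since 3 arrays of a single group allow no test between arrays, and without replicate 3 the ranges of Edn1 and Ednrb would be 0.21 and 0.27.

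**Figure D2:**
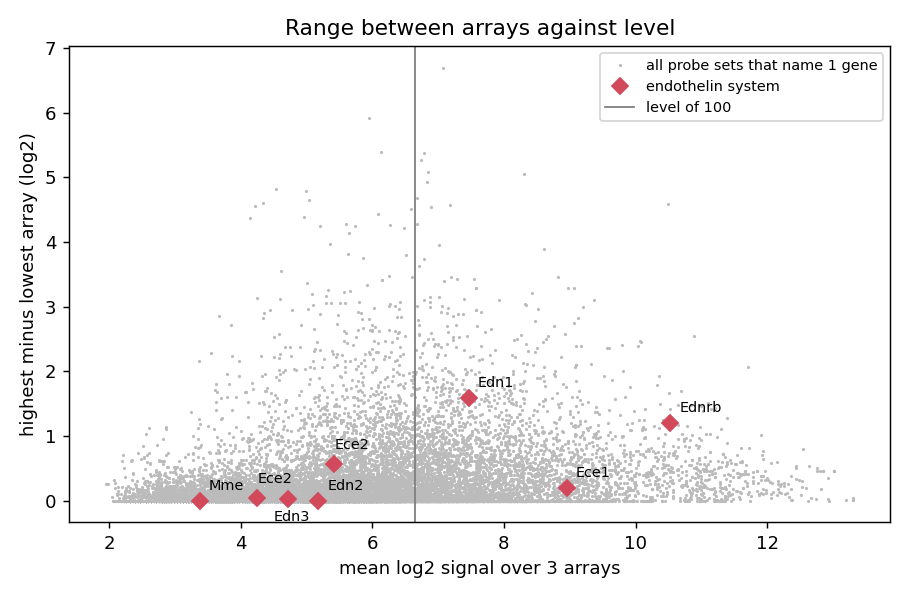
Range between the arrays (highest minus lowest log2 signal, vertical axis) against the mean log2 signal over the 3 arrays (horizontal axis) for the 21789 probe sets that name a single gene (grey) and the 8 of the endothelin system (red). Edn1 at 1.58 and Ednrb at 1.20 lie high above the bulk of the points, and Ece1 at 0.19 lies within it.

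Other genes also stood apart on replicate 3. Of the 10 endothelial markers 7 were lowest there, and so were all 7 genes of a glomerular endothelial list, with a median deviation of -0.42 from the mean of the 3 arrays. That list is the study's own choice, possibly made on these arrays, and shares Ehd3 with the endothelial markers. Nostrin, which encodes a regulator of endothelial nitric oxide synthase, had 9.67, 8.77 and 9.83 on replicates 1, 3 and 5. Of 10 arterial genes 7 were highest on replicate 3, with a median deviation of 0.50 on that array. The connexin gene Gja4 had 7.60, 8.90 and 8.11, and Gja5 had 7.37, 8.70 and 5.82. The exceptions among arterial genes were Hey1, lowest on replicate 3 with 6.63, 5.22 and 7.06, Efnb2, and Eln at 6.52 on each array. Ednrb thus lay on the side of the glomerular list and Edn1 on that of the arterial list, and the part of either in these values was not tested. Both lists were added last, with earlier results of these data known, so this is a description of the same arrays only. Among all 1818 probe sets with at least 100 on each array and 3 distinct values, 42.8% were lowest on replicate 3 and 35.6% highest. Many arterial genes are outside that set, among them Mgp, Fbln5 and Gja5, which were under 100 on some array. So are Gimap3 and Sema5a of the glomerular list. The shares are therefore not a like comparison for the 2 lists.

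**Figure D3:**
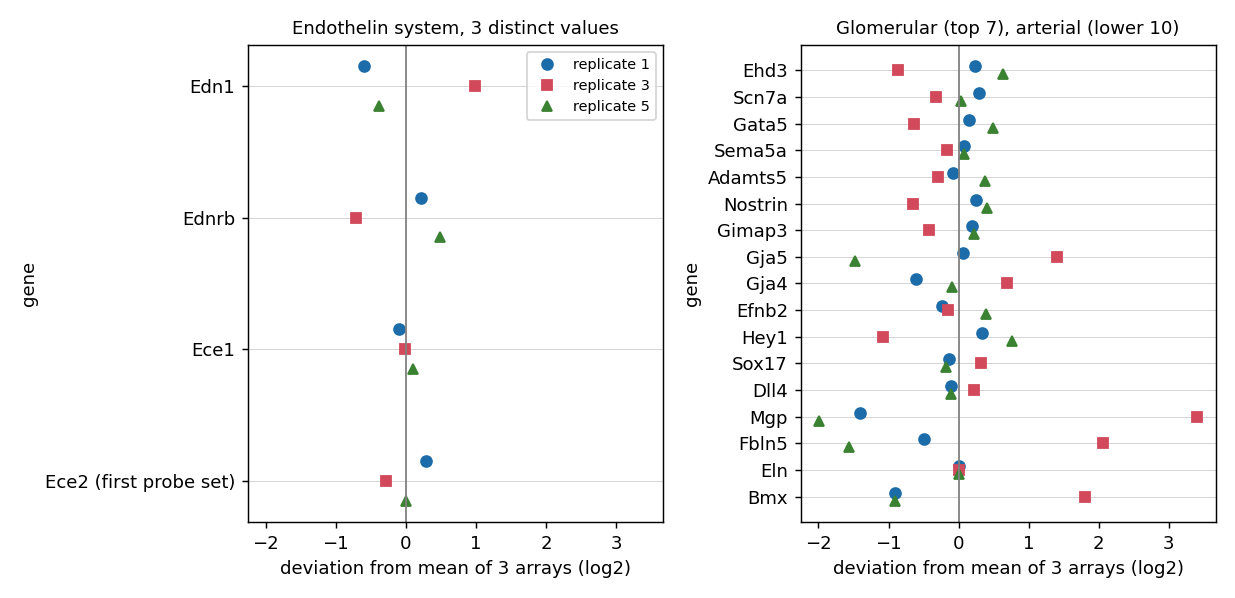
Deviation of the log2 signal on each array from the mean of the 3 arrays (horizontal axis) for the probe sets of the endothelin system with 3 distinct values (left) and for genes of glomerular and arterial endothelium (right). On replicate 3 (squares) Edn1 lies at 0.98 and Ednrb at -0.71, and the 7 glomerular genes lie to the left of 0.

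The genes with the deviations most like those of a member were looked up among 4089 probe sets with at least 100 on each array, by the distance between the 3 deviations. For Edn1 these were Serp1 (distance 0.0062), with 7.11, 8.70 and 7.32 on replicates 1, 3 and 5, Gsk3a (0.159) and Usp6nl (0.159). Only 1 probe set lay within 0.1 of Edn1. For Ednrb they were Gnai3 (0.0196), with 8.67, 7.76 and 8.94, Dguok (0.0285) and Rap2a (0.0444), and 12 probe sets lay within 0.1. With 3 arrays a close pattern carries little information.

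Genes that act before and after the endothelin receptors were counted in 7 lists. Among 68 measured genes there were 24 (35.3%) above 100, 33 (48.5%) below and 11 neither, with a median level of 6.33. Of the 68, 31 repeated 1 value on all arrays, so their p-values rest on the variance of other probe sets. Over all genes, with the probe set of the highest mean for each, 14.9% were called above and 73.8% below.

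Prohormone convertases, some of which trim the precursors, were not called above in any of 7 cases in the list, with 5 below and 2 neither. The share below, 71.4%, was near the 73.8% of all genes, of which 14.9% were above. Furin, the convertase best known for endothelin precursors, was below at 5.82 on each array, and Pcsk5 was called neither at 6.38 ± 0.05 (limma, adjusted p = 0.103). At an unadjusted p under 0.05 the count above was also 0, and limma's own prior called 1 above, Mbtps1 at 6.80 on each array. Among 10 other peptidases, 1 was above, 8 below and 1 neither. These shares, 10% above and 80% below, were near those of all genes. Cathepsin A (Ctsa), a lysosomal carboxypeptidase that can inactivate endothelin-1, was above with 7.54, 7.26 and 7.93 on replicates 1, 3 and 5 (limma, adjusted p = 0.00828). Ecel1 and Mmel1, relatives of the converting enzymes and of neprilysin, were below at 5.15 and 4.10 ± 0.13.

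G proteins through which endothelin receptors signal were mostly above, with 5 of 8 above, 2 below and 1 neither. Gnaq and Gna11, the alpha subunits that couple to phospholipase C, were at 8.44 ± 0.28 and 8.85 ± 0.01. Gna13, another alpha subunit, was at 8.02 ± 0.31, and the inhibitory subunits Gnai2 and Gnai3 were at 10.76 ± 0.13 and 8.46 ± 0.62. Gna12 was below at 5.45 ± 0.74, a call that was lost with limma's own prior. Of 10 genes for phospholipase C, the IP3 receptors and protein kinase C, 2 were above, 5 below and 3 neither. Plcb1 was above at 7.90 and Plcb3 at 7.05, with no difference between arrays, while Plcb2 was below at 3.68. Of 11 genes of receptor desensitisation, 3 were above, 7 below and 1 neither. The receptor kinase gene Grk5 was above at 7.74 ± 0.05 and Rgs2, a brake on Gq signalling, at 7.95 ± 0.10. Rgs3 was above at 7.81 ± 0.77 (limma, adjusted p = 0.0289), a call that limma's own prior did not make, and like Edn1 it was highest on replicate 3, with 7.20, 8.67 and 7.55. Grk3 was below at 3.67.

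**Figure D4:**
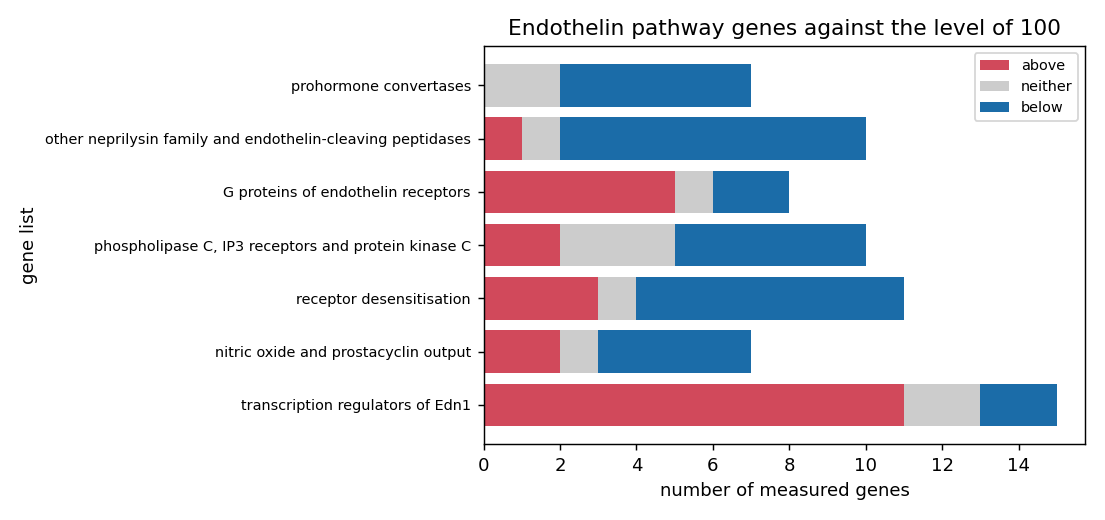
Number of measured genes (horizontal axis) of each list of the endothelin pathway that limma called above, neither or below the level of 100 over the 3 arrays. The transcription regulators of Edn1 have 11 of 15 above, and the prohormone convertases 0 of 7. Over all genes 14.9% were above and 73.8% below.

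Genes for the nitric oxide and prostacyclin that follow Ednrb in endothelium were above in 2 of 7 cases, with 4 below and 1 neither. The measured genes of prostacyclin synthesis, Ptgs2, Ptgis and Pla2g4a, were all below, at 4.49 ± 0.61, 5.37 ± 0.15 and 5.14 ± 0.43. Nos3, endothelial nitric oxide synthase, was called neither at 6.62 ± 0.31 (limma, adjusted p = 0.909). Its inhibitor in caveolae, Cav1, was above at 8.77 ± 0.03 and its chaperone Hsp90aa1 at 10.65 ± 0.75, with 11.46, 10.51 and 9.98 on replicates 1, 3 and 5. Akt1, a kinase that activates Nos3, was below at 6.01 ± 0.36 (limma, adjusted p = 0.0314), and this call was lost with limma's own prior. Regulators of Edn1 transcription were above in 11 of 15 cases, with 2 below and 2 neither. Of these 15 genes, 8 repeated 1 value on all arrays and so had no measured spread. Epas1 and Arnt, subunits of hypoxia-inducible factors, were above at 10.78 ± 0.13 and 7.10, and Hif1a was called neither at 6.87 (limma, adjusted p = 0.139). The coactivator Ep300 was above at 8.20 ± 0.11 and the AP-1 subunit Jun at 8.99 ± 0.23. Its partner Fos was below at 5.39 ± 0.26 (limma, adjusted p = 0.00193). Gata2, the GATA factor of the list, was called neither at 6.75 on each array (limma, adjusted p = 0.436), and both were named after their values were seen. GATA factors of other lists fell on either side. Gata5 of the glomerular list was above at 8.07 ± 0.58 (limma, adjusted p = 0.00705). Gata3 of the mesangial and smooth muscle list was below at 4.92 ± 0.29 (limma, adjusted p = 0.000747). Also above among the regulators of Edn1 were Klf2 and Klf4, flow-responsive factors, at 7.78 and 7.41. On replicates 1, 3 and 5, Epas1 had 10.71, 10.93 and 10.71, and Jun had 9.25, 8.81 and 8.92, with ranges of 0.23 and 0.43.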

How the data were processed

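RNA from sorted cells went through 1 round of amplification and onto Affymetrix Mouse Gene 1.0 ST arrays. The deposited values are log2 signals per probe set, normalized by the authors with Affymetrix Expression Console according to the submitters' notes (version not given in the sources used here). The study describes RMA for its own work. Medians were 4.85, 4.80 and 4.79 on replicates 1, 3 and 5. The deposited scale need not be that of the study's filter of 100. The platform annotation named 1 gene for 21789 probe sets, several for 1621 and none for 12147.

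An intercept was fitted per probe set with limma 3.58.1 (R 4.3.3). Since 54.1% of probe sets repeat 1 value on all arrays (within 1e-09), which gives a variance of 0, the variance prior came from the 4406 with 3 distinct values, and limma's own prior over all of them was an alternative. The fit was tested on simulated data with such repeats placed at random and variances drawn from the first prior. Of 100 probe sets placed at the level itself, 9% were called with the first prior and 57% with the second. As the simulation was built on the first prior, it cannot decide between the priors. These p-values reflect the spread of 3 arrays, whose number limits the precision, moderated by the prior. For probe sets that repeat 1 value, such as those of Edn2 and Mme, the width of the interval and the p-value come from the prior. They do not measure a spread between the arrays of that probe set. Other levels, priors, normalizations, adjustments and filters were tried, each replicate was left out in turn, and for genes with several probe sets their median was also used. Genes were named by list position, by their calls and by likeness to a member. The rule for the members uses gene names only, but members, lists and tests were proposed with earlier results of these data known, and the glomerular and arterial lists were added last.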

Additional observations from a re-analysis of the deposited data

How the results depend on the processing

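The calls of the 8 probe sets were the same with both other variance priors, with median centring, with quantile normalization, with either other set of probe sets for the adjustment where it tested them, and without any replicate. For Edn1 these settings gave adjusted p-values between 0.0684 and 0.186, with differences from the level of 0.33 (without replicate 3) to 1.12 (without replicate 1). The level itself mattered. Edn1 was above a level of 50 (difference 1.82, adjusted p = 0.0105), was above the olfactory receptor level by 2.61, and lay on the other side of 200 (difference -0.18, adjusted p = 0.658). The first Ece2 probe set lost its call at 50 (difference -0.22, adjusted p = 0.278) and turned to 0.57 above the olfactory receptor level, where Edn2 turned to 0.32 and Edn3 lost its call at -0.13. At that level 4 member probe sets were above, 2 below and 2 neither, for 4 genes above, 1 below and 2 neither. The fourth gene is Ece2 through its first probe set, which lists no transcript of Ece2 alone. Without that probe set, a choice made after seeing the data, 3 genes were above, 2 below and 2 neither. Of the pathway genes 47 were above and 12 below at that level. Pathway genes above numbered 9 at a level of 200, and those below 19 at a level of 50. Shares of all genes at 50, 200 or the olfactory receptor level are not given here, so these gene counts describe the settings only. Pathway genes called neither were 6 with limma's own prior, 4 with median centring and 5 with quantile normalization, against 11. All other counts were within 1.5 times. The ranges of Edn1 and Ednrb rest on replicate 3, as given beside them. Mme and Edn2 had no measured spread.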
